A study of Mus musculus with 2 samples.

Results

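The genes described here are 8 that mark contractile smooth muscle: Acta2, Actg2, Myh11, Tagln, Cnn1, Des, Myocd and Lmod1. They were taken by name from the GENCODE M21 annotation of the mouse genome (mm10), in which all 8 were found among 21938 protein-coding genes on the 19 autosomes, X and Y. CTCF binding was mapped by ChIP-seq, which sequences the DNA that an antibody recovers together with a protein, in stomach tissue of B6NCrl mice at postnatal day 0. The series holds 1 group of 2 samples, labelled as biological replicates 1 and 2, and no second age, tissue, genotype or treatment was compared. Both carry the same donor and the same tissue sample in their labels, which means that differences between replicates may be technical. The sex was not collected. The tissue was bulk stomach, with no expression measured in it, so the labelled tissue could not be checked against marker transcripts. In bulk tissue, fewer cells with a bound site and weaker binding in each cell cannot be told apart.

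Smooth muscle of the stomach wall contracts when myosin filaments pull on actin filaments anchored to the cell's cytoskeleton. Its contractile genes are switched on together during development by serum response factor, SRF, which binds a DNA element called the CArG box, with the coactivator myocardin. CTCF is a zinc finger protein that binds a long, mostly fixed DNA motif, blocks enhancers from acting on the wrong promoter and, with cohesin, holds the bases of chromatin loops.

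The authors deposited 5 peak lists. The optimal and the conservative list contain peaks kept after IDR, a procedure that retains peaks ranked alike in replicates, and 3 relaxed lists of 300000 peaks each cover replicate 1, replicate 2 and both together. The optimal list served as the main one and held 74283 peaks on the chromosomes used, with a median signal of 76.5 (from 4.99 to 677). Signal is the authors' own value for each peak. It has no unit and was not scaled between lists, so the rank within its list is given beside a replicate's signal where a result turns on it.

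A peak was assigned to a gene when its summit lay within 10 kb of any annotated transcript start (TSS) of the gene or inside the gene body. By this rule 29 optimal peaks fell to the 8 genes, 8 to Myocd, 7 to Myh11, 3 each to Actg2 and Tagln and 2 each to Acta2, Cnn1, Des and Lmod1. The strongest sites are shown first as DNA, since each of the 8 genes had at least 1 peak with a CTCF motif. Capitals mark the 19-base stretch within 50 bp of the summit that best matched a CTCF matrix built from peaks of chromosome 2, where none of the 8 genes lies. Coordinates are those of the 29 printed bases in mm10, read from the RefSeq GRCm38 sequence on the strand named, 5′ to 3′.
Myh11, upstream of the start, chr16:14291465-14291493, minus strand: gttccTCACCTGCAGGGGGCGCCGcgaag
Myh11, intron, chr16:14237494-14237522, plus strand: atcacTCACCAGTAGATGGCAGCAgtgcc
Myocd, intron, chr11:65197437-65197465, plus strand: accatTGTACAGAAGAGGGAGCTCctgaa
Tagln, upstream, chr9:45937139-45937167, minus strand: ttcagATGCCACAAGGAGGTGCTGgagtt
Cnn1, upstream, chr9:22096212-22096240, plus strand: tgcccTGGCCACCAGGGGGTACCAgacct
Des, downstream, chr1:75371581-75371609, plus strand: cgcctAGTCCAGGAGAGGGCGCCAgccac
Acta2, intron, chr19:34244233-34244261, plus strand: aaaatATACCACTAGATGGCGCCCacggc
The most frequent base at each matrix position spelled TGGCCACCAGGGGGCGCCA. The Cnn1 site differed from it at 2 of 19 positions, the Myh11 site upstream of the start and the Des site at 5, the Acta2 and Tagln sites at 7, and the Myh11 intron and Myocd sites at 8.

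Genes with a peak were counted beside the share of all coding genes. All 8 had an optimal peak within 10 kb of a TSS, against 72.3% of all coding genes. Within 1 kb of a TSS 5 of 8 (62.5%) had one, against 45.6% of coding genes, and inside the gene body 6 of 8 (75%), against 58.9%. The genes with a peak within 1 kb were Actg2, Myh11, Tagln, Myocd and Lmod1, and those without were Acta2, Cnn1 and Des. Tagln and Cnn1 had no optimal peak in the body. Body peaks depend on gene length, which ran from 6440 bp in Tagln to 96838 bp in Myh11. Pooled over gene bodies, there were 0.506 peaks per 10 kb in the 8 genes and 0.396 in all coding genes. By gene the members ran from 0 at Tagln and Cnn1 to 1.38 at Acta2. The median number of body peaks per gene was 1 in the members and in all coding genes. The members were chosen with results of these data known, so these shares stand as a description.

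The presence of a peak near the start depended on the list, and in some lists the members' share was below that of coding genes. Within 1 kb, 2 of 8 genes (25%), Myh11 and Lmod1, had a peak in the conservative list, against 43.7% of coding genes. Among the 37141 strongest optimal peaks 1 of 8 (12.5%), Myh11, had one, against 23.9%. Without replicate 1 the count was 4 (44.2%) and without replicate 2 it was 3 (48.0%). Within 10 kb the count was 8 in the conservative list (71.4% of coding genes) and 6 among the 37141 strongest (55.5%). It was 7 when the annotated 5′ end stood alone for the TSS (66.9%). In the body it was 7 in the conservative list (58.0%) and 3 among the 37141 strongest (42.3%). The relaxed lists, which hold many weak peaks, gave all 8 genes a peak within 10 kb, against 86.0% of coding genes in the list of both replicates together, 86.8% in replicate 1 and 88.1% in replicate 2. All 8 had a body peak there (78.7%, 79.2% and 79.0%), and within 1 kb the counts were 8, 8 and 7 (72.6%, 72.5% and 71.0%).

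**Figure D1:**
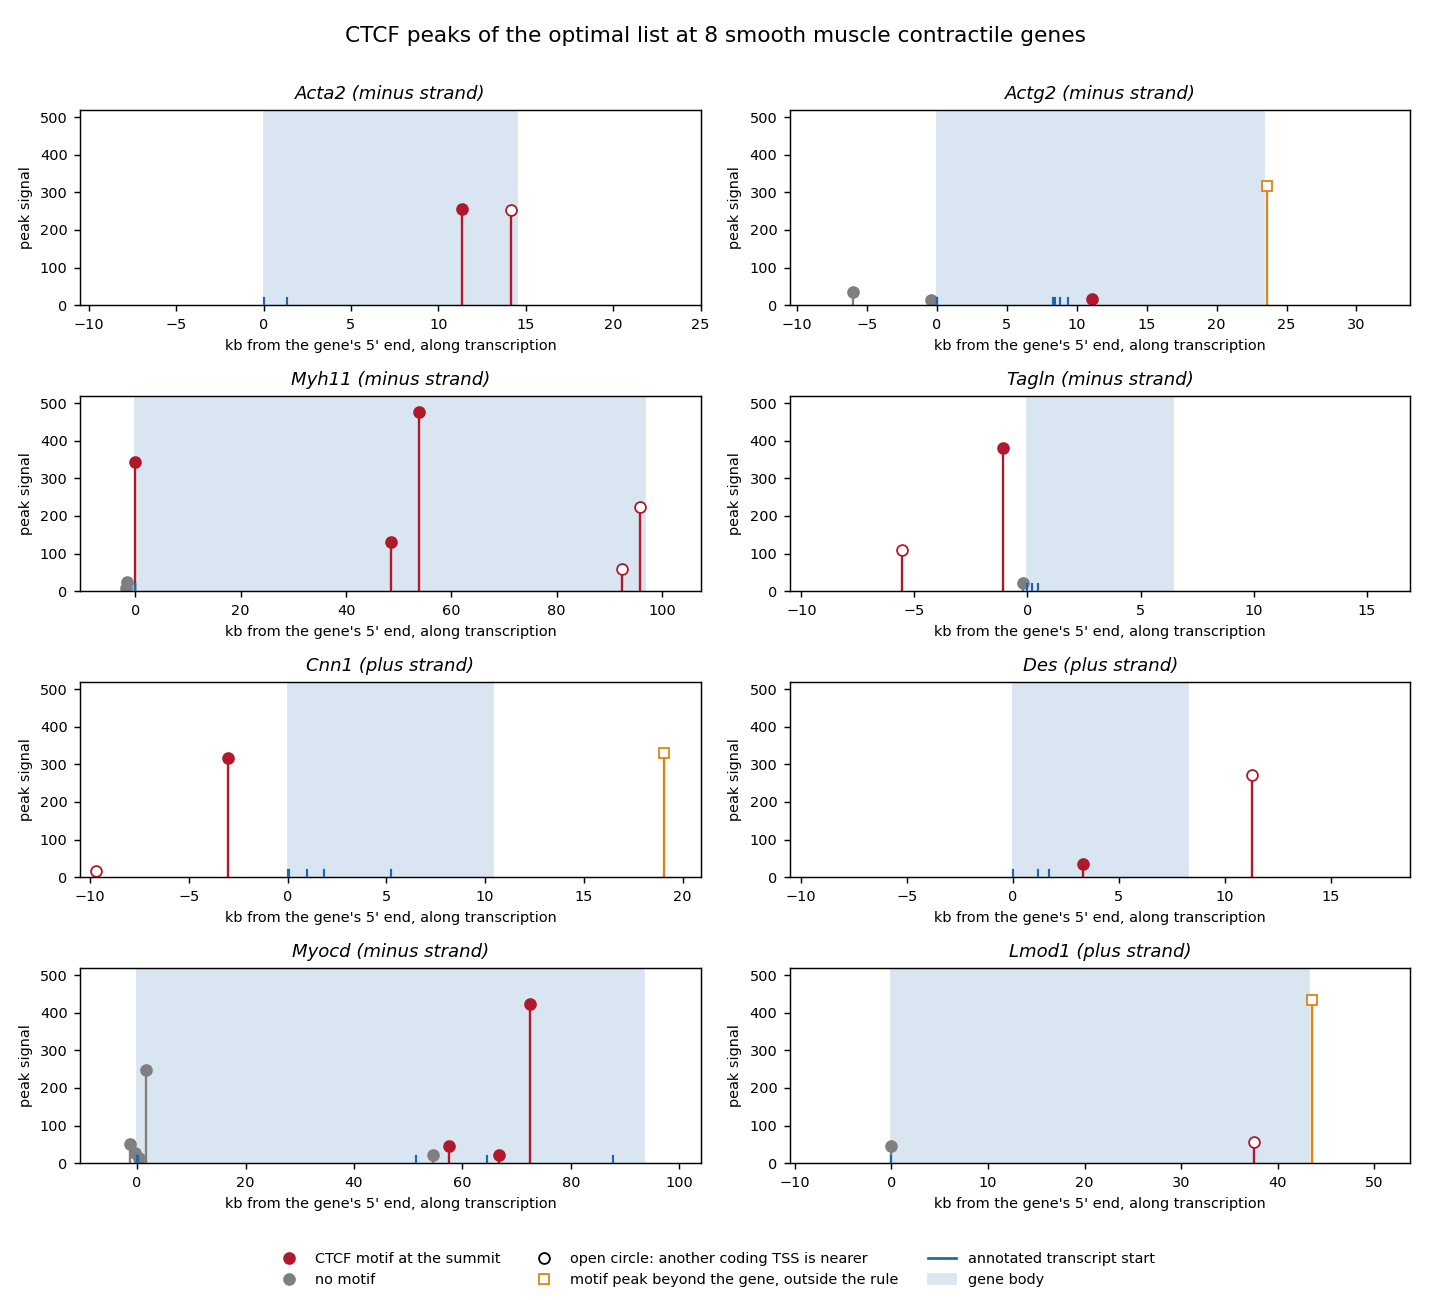
Optimal CTCF peaks at the 8 genes, each gene drawn 5′ to 3′ along the horizontal axis in kb from its 5′ end (axes differ between genes), with peak signal on the vertical axis. Red circles, filled or open, carry the CTCF motif and grey circles do not. Open circles have another coding TSS nearer, and orange squares are motif peaks beyond the gene that the assignment rule does not take. The highest circle is the Myh11 intron peak at a signal of 475.

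Myh11 (chr16:14194535-14291372, minus strand) encodes the smooth muscle myosin heavy chain, the motor of contraction, and held the strongest of the 29 peaks. It lay at chr16:14237359-14237677 in an intron, 53859 bp from the gene's 5′ end. Its signal was 475 in the optimal list (rank 1388, above 98.1% of peaks), 269 in replicate 1 (rank 1219) and 206 in replicate 2 (rank 1963). Both replicates thus placed it near the top of their lists, and no other coding TSS was nearer. A second intron peak, 48622 bp from the 5′ end, had a signal of 132, with 69.0 in replicate 1 and 61.5 in replicate 2.

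At the Myh11 promoter, a peak 111 bp upstream of the start (chr16:14291338-14291616) reached 344, with 225 in replicate 1 (rank 5595) and 121 in replicate 2 (rank 14869). It was the only one of the 6 peaks within 1 kb of a member's TSS with the CTCF motif. Farther upstream, at 1647 and 1850 bp, lay weak peaks of 23.9 and 7.40 with no motif. The weaker of these had no summit within 100 bp in either replicate list, and the nearest summits in both were those of its stronger neighbour.

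Near the 3′ end of Myh11, intron peaks at 92381 and 95766 bp from the 5′ end had signals of 59.7 and 225. Replicate 1 gave them 40.0 and 138, and replicate 2 gave 16.5 and 86.4. Both carried the motif. A TSS of Nde1, a gene for a dynein regulator, lies beyond the 3′ end of Myh11 and was nearer than any of Myh11, at 15418 and 12033 bp.

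Acta2 (chr19:34241090-34255590, minus strand), the alpha actin of smooth muscle, had no optimal peak at its start and a pair of about equal ones toward its 3′ end. The first lay in an intron, 11340 bp from the 5′ end and 9980 bp from an inner TSS, just inside the limit of 10 kb. Its signal was 254, with 155 in replicate 1 (rank 15445) and 99.8 in replicate 2 (rank 18393). The second lay in an annotated untranslated region, 355 bp short of the gene's 3′ end, with a signal of 253, where replicate 1 gave 117 (rank 20642) and replicate 2 gave 134 (rank 12673). The replicates ordered these peaks oppositely. The TSS of Stambpl1, a gene for a deubiquitinase, was nearer to the second peak, at 8739 bp. In the relaxed list of replicate 1, 3 summits lay within 1 kb of an Acta2 TSS, the highest at 8.28 (rank 98412), and in that of replicate 2 none did.

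Actg2 (chr6:83512905-83536265, minus strand), the gamma actin of enteric smooth muscle, held only weak peaks by the rule. One lay 431 bp upstream of the start with a signal of 12.9, rank 73601 of the 74293 peaks deposited in the optimal list. It had a value of 5.27 in replicate 2 (rank 111623) and no summit within 100 bp in replicate 1. The nearest replicate 1 summit lay 109 bp away, with a signal of 8.96 (rank 92709). The next, 6026 bp upstream, reached 33.6, with 21.01 and 13.5 in replicates 1 and 2, and neither carried the motif. An intron peak of 17.5 (11.1 in replicate 1 and 6.79 in replicate 2), 1733 bp from an inner TSS, carried the motif within masked repeat sequence.

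**Figure D2:**
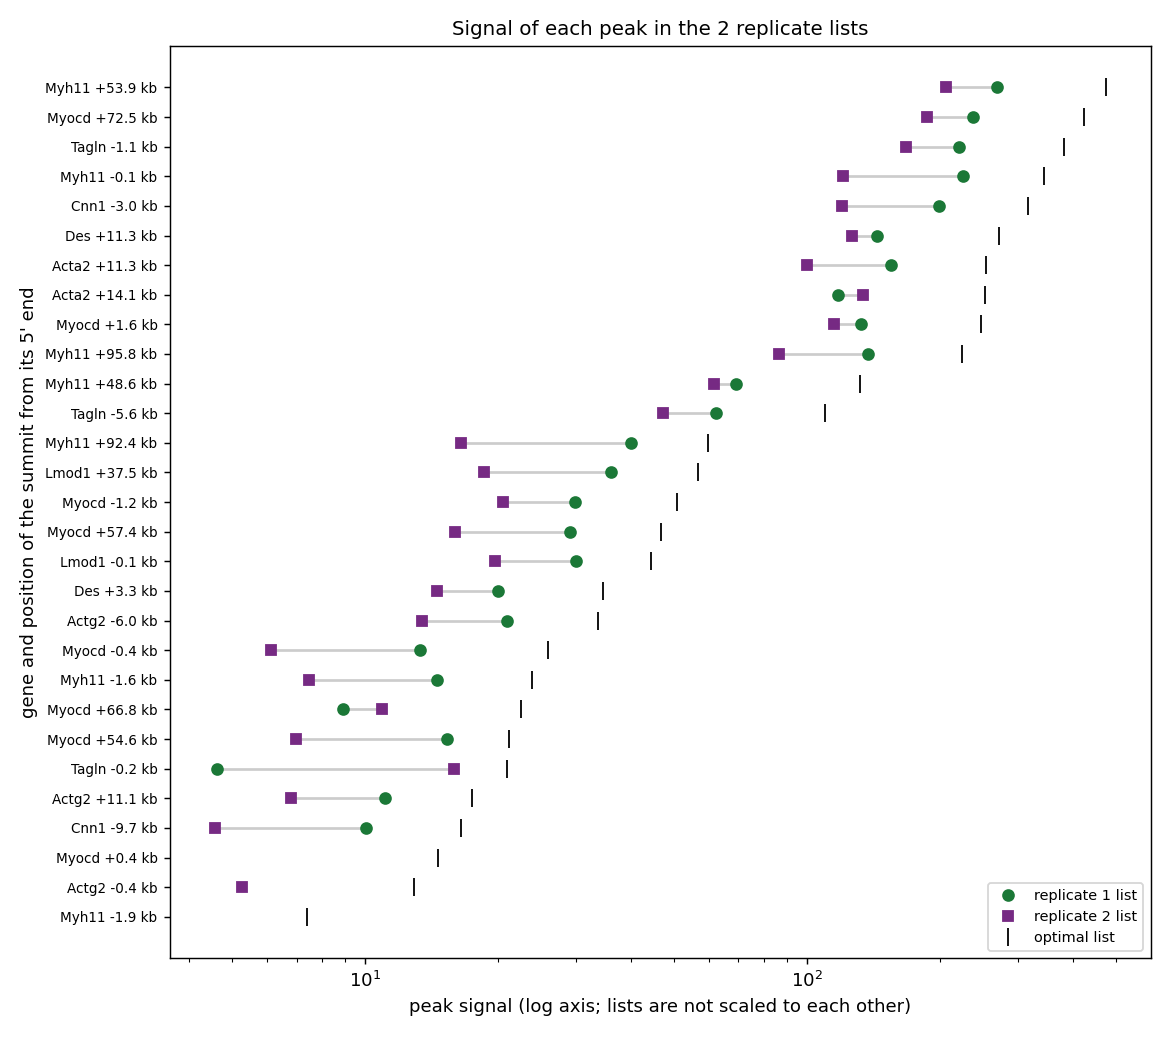
Signal of each of the 29 optimal peaks in the replicate 1 list (green circles), the replicate 2 list (purple squares) and the optimal list (black ticks), on a log axis, with peaks named by gene and distance of the summit from the gene's 5′ end. Replicate 1 gave the higher value in 23 of the 26 peaks found in both, and the Tagln peak at the start shows the widest gap, from 4.62 to 15.9.

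Among the genes for actin-associated proteins, Tagln (chr9:45929619-45936058, minus strand), whose product transgelin cross-links actin, had its main peak upstream of the start. This peak, chr9:45936994-45937274, lay 1075 bp upstream, just outside the 1 kb limit. Its signal was 381 (rank 6997), with 221 in replicate 1 (rank 6224) and 167 in replicate 2 (rank 7180). Both replicate lists therefore ranked it about as the optimal list did.

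A weak Tagln peak sat 185 bp upstream, with a signal of 20.995 and no motif. Replicate 1 gave it 4.62 (rank 173575) and replicate 2 gave 15.9 (rank 53366), a ratio of 0.29 and the lowest among the 26 peaks found in both. Only the replicate 2 summit ranked within the first 74283 of its list. The third Tagln peak, 5570 bp upstream, belonged by position to Sidt2, a gene for a lysosomal membrane protein: it lay in a Sidt2 intron, 220 bp from a Sidt2 TSS. Its signal was 110.1, with 62.4 and 47.1 in replicates 1 and 2.

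Cnn1 (chr9:22099216-22109630, plus strand) encodes calponin, which binds actin and slows the myosin motor. Its main peak (chr9:22096096-22096370) lay 2989 bp upstream with a signal of 317 (rank 12090), 199 in replicate 1 (rank 9256) and 120.0 in replicate 2 (rank 15007). It carried the best motif match of the 29 peaks, with a score of 21.6 (log2 odds). A weak peak of 16.5 lay 9683 bp upstream, with 10.03 in replicate 1 and 4.57 in replicate 2, and the TSS of Ecsit, a gene for a mitochondrial assembly factor, was nearer, at 4095 bp. The conservative list added a peak of 17.5 inside the Cnn1 body, 6888 bp from the 5′ end, that the optimal list did not hold.

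Lmod1 (chr1:135324807-135368065, plus strand) encodes leiomodin, which starts new actin filaments in smooth muscle. A peak 90 bp upstream of its single TSS had a signal of 44.3 (rank 49359), with 30.0 and 19.6 in replicates 1 and 2, and no motif. An intron peak 37514 bp from the start had a signal of 56.7, with 36.1 and 18.6, and Shisa4 had the nearer coding TSS, at 11129 bp. Both Lmod1 peaks were below the median signal of the optimal list.

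Des (chr1:75360329-75368579, plus strand) encodes desmin, the intermediate filament of muscle cells. A coding-exon peak 3318 bp from the 5′ end had a signal of 34.6, with 19.99 and 14.5 in replicates 1 and 2. The stronger peak, chr1:75371474-75371713, lay beyond the 3′ end, 11264 bp from the 5′ end and 9563 bp from the nearest Des TSS. That TSS belongs to an inner transcript annotated as a retained intron. This stronger peak had a signal of 271, with 144 in replicate 1 (rank 16926) and 126 in replicate 2 (rank 13962). The TSS of Speg, a gene for a kinase of striated and smooth muscle, was nearer to it, at 3704 bp. At the Des start itself, 139 bp upstream, the relaxed lists held a weak summit of 4.28 in replicate 1 and 7.94 in replicate 2 that the optimal list did not keep. The highest replicate 1 summit within 1 kb of the Des start was another one, 285 bp past it, at 9.23 (rank 91008).

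Myocd (chr11:65176561-65269989, minus strand) encodes myocardin, the SRF coactivator, and had the most peaks, 8, all within 10 kb of one of its 6 transcript starts and each nearer to a Myocd TSS than to that of any other coding gene. The strongest, chr11:65197311-65197606, lay in an intron 72531 bp from the 5′ end with a signal of 424 (rank 4018), 237 in replicate 1 (rank 4061) and 187 in replicate 2 (rank 4184). All 3 lists thus gave it a high rank.

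The second in strength lay 1554 bp inside the gene, chr11:65268320-65268549, with a signal of 248, 133 in replicate 1 and 115 in replicate 2. It was the only one of 12 member peaks with a signal of at least 100 that lacked the motif, with a best score of 4.86 against the 10.45 required. The other 6 Myocd peaks had signals of 14.6 to 50.8. Near the 5′ end, peaks at 428 and 1216 bp upstream had signals of 26.0 and 50.8, and one 419 bp inside the gene had 14.6. The last of these had no partner within 100 bp in either replicate, the nearest lying 112 bp away in replicate 1 (8.07) and 148 bp away in replicate 2 (9.09). None of the 4 Myocd peaks nearest the 5′ end carried the motif.

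Over all 29 peaks, 18 (62.1%) carried the motif, against 68.3% of optimal peaks outside chromosome 2. In 15 of the 18 the motif centre lay within 10 bp of the summit. The score required was met by 1% of random windows of the same width, searched on both strands. At the score met by 0.1% of random windows, 11 of the 29 had it, against 33.5%. Motif presence went with signal across the optimal peaks outside chromosome 2: with these split by signal into 5 equal parts, from weakest to strongest, 44.0%, 57.7%, 67.4%, 80.3% and 92.3% had it. Among the members' peaks, 11 of 12 with a signal of at least 100 carried it, and 7 of 17 weaker ones. Peaks with a signal of at least 100 made up 41.4% of the members' peaks and 43.4% of all.

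Outside chromosome 2, 40.8% of optimal peaks within 1 kb of a coding TSS and 74.5% of those farther away had the motif. At the 8 genes, 1 of 6 peaks within 1 kb had it. Of the 23 peaks within 10 kb, those 6 included, 12 had it. All 6 body peaks more than 10 kb from a TSS of the gene had it as well. They came from 3 genes, and only 2 of them had no nearer TSS of another coding gene. No share over all optimal peaks was counted for that distance. The 5 peaks within 1 kb that lacked it had signals of 12.9 to 44.3, and the 1 with it 344.

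**Figure D3:**
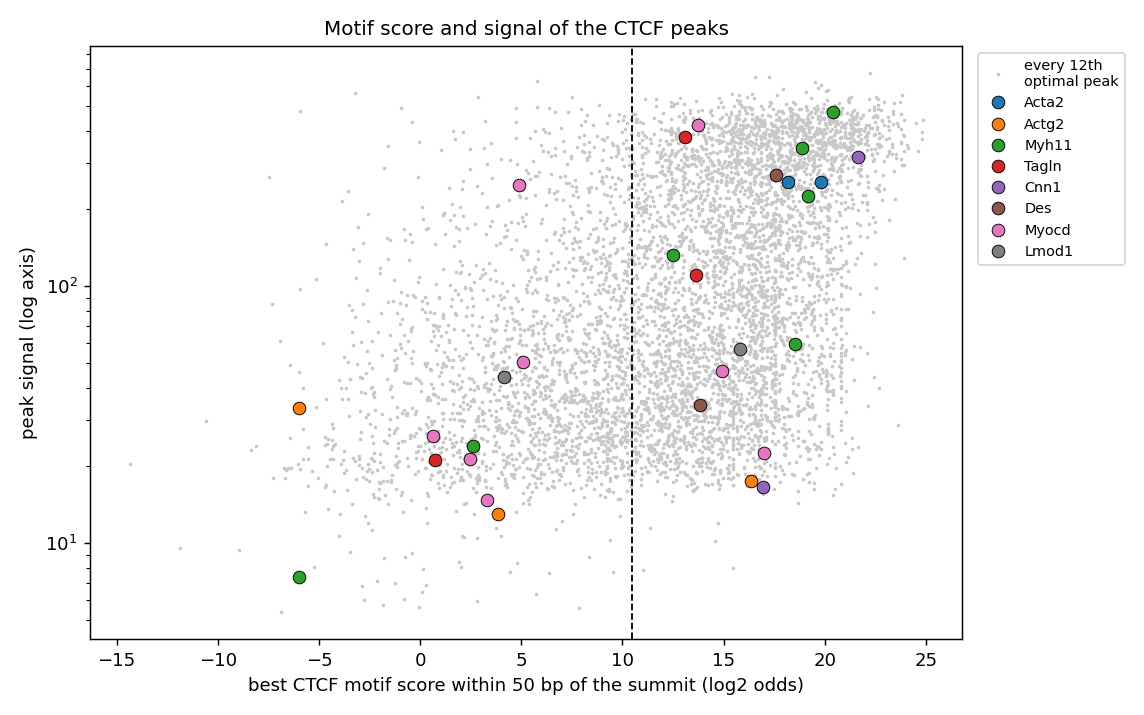
Best CTCF motif score within 50 bp of the summit (horizontal axis, log2 odds, with the required score of 10.45 dashed) against peak signal (vertical log axis) for the 29 member peaks, coloured by gene, over every 12th optimal peak in grey. The member peaks right of the line reach 475, and left of it all but the Myocd peak at 248 stay at or below 50.8.

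A few weak members' motifs lay in repeats. Of the 18 motifs, 3 (at Actg2, Cnn1 and Lmod1, all with a signal under 100) lay in sequence masked as repeat in the reference, against 29.9% of motif peaks in the whole list and 46.8% of those with a signal under 100. They are printed because they are close copies of each other on 3 chromosomes, with the motif in capitals and mm10 coordinates as before.
Actg2, intron, chr6:83525151-83525179, plus strand: cccagAGGCCAGAAGATGGCATTGgagcc
Cnn1, far upstream, chr9:22089481-22089509, plus strand: tgtaaAGGCCAGAAGAGGGCATTGagtct
Lmod1, intron, chr1:135362299-135362327, minus strand: cacagAGGGCAGAAGAGGGCACTGaatcc
The Actg2 and Cnn1 stretches differed at 1 of 19 positions, Cnn1 and Lmod1 at 2, and Actg2 and Lmod1 at 3. Their deposited signals were 17.5, 16.5 and 56.7. The family of the repeats was not looked up.

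At 3 genes a strong peak marked the 3′ end, a pattern looked at after the data had been seen. Beside the Acta2 peak 355 bp inside the gene, a peak of signal 318 lay 207 bp past the end of Actg2 (chr6:83512560-83512815), with 179 in replicate 1 and 141 in replicate 2. It was far above the gene's own peaks of 12.9 to 33.6. At Lmod1, a peak of signal 435 (rank 3314) lay 332 bp past the end (chr1:135368235-135368558), with 240.2 in replicate 1 and 193 in replicate 2. The rule for members does not take these 2 flanking peaks, whose nearest coding TSS were those of Dguok, at 5729 bp, and Shisa4, at 5053 bp. With Acta2 included, 3 of 8 genes had a peak with a signal of at least 100 within 1 kb of the 3′ end, against 6.02% of coding genes. Their motifs are shown as above.
Actg2, past the 3′ end, chr6:83512691-83512719, minus strand: caagaAGGACAGAAGAGGGCATTGcatcc
Lmod1, past the 3′ end, chr1:135368384-135368412, minus strand: gcagtTTTCCTCGAGGTGGCGCTGcgctc
The Actg2 site lies in masked repeat sequence and differed at 1 of 19 positions from the Cnn1 repeat copy and at 2 from the copy in the Actg2 intron.

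CTCF motifs have a direction, and pairs that face each other are the usual bases of loops. The nearest motif peak beyond the 5′ end pointed its motif toward the gene in 7 of 8 cases, all but Lmod1, against 54.1% of coding genes. Beyond the 3′ end 3 of 8 did (Acta2, Tagln and Lmod1), against 50%. The distance from the 5′ end to the nearest motif peak beyond it ran from 111 bp at Myh11 to 190985 bp at Myocd. At Des and Myocd this peak was weak, with signals of 59.2 and 29.1, and the Myocd motif lay in masked repeat sequence. Both flanking motifs pointed toward the gene only at Acta2 and Tagln. This too was looked at after the data had been seen, and loops were not measured.

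The replicate lists held a summit within 100 bp of 26 of the 29 peaks (89.7%), against 97.1% of all optimal peaks. Within 300 bp all 29 had a summit in both lists, which for the Myh11 peak 1850 bp upstream was that of the neighbouring peak. In 19 of 29 (65.5%) both summits also ranked within the first 74283 of their list, against 83.2%. The conservative list held 22 of the 29 (75.9%), against 88.5%. All 12 peaks with a signal of at least 100 met each of these conditions, and 7 of the 17 weaker ones ranked that high in both. Replicate 1 gave the higher signal in 23 of 26 peaks, as it did in 88.5% of optimal peaks found in both lists. The ratio of replicate 1 to replicate 2 had a median of 1.54 (from 0.29 to 2.43) over the 26 and 1.33 over all, with the lists unscaled to each other.

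By nearest coding TSS, 22 of the 29 peaks belonged to the member itself. The other 7 were nearest to Stambpl1 (1), Nde1 (2), Sidt2 (1), Ecsit (1), Speg (1) and Shisa4 (1). Within 10 kb of a TSS, 20 of 23 peaks had no nearer coding TSS, against 77.7% of all pairs of a coding gene and an optimal peak within 10 kb. With starts of every annotated gene in place of coding ones, 22 of 29 again had the member's TSS nearest. Gm15179 was then nearest to the Des peak beyond the 3′ end, at 1142 bp. Gm22796 was nearest to the Lmod1 intron peak, at 8499 bp, and Gm6581 to the weak Cnn1 peak, at 2980 bp. By annotation 13 of the 29 summits were intronic, 1 was in a coding exon, 1 in an untranslated region and 14 outside the gene body.

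The promoters, 250 bases before to 50 after each gene start, had a GC content of 57.0% in the median (from 42.3% in Actg2 to 67% in Des), against 55.0% over all coding genes. Their CpG content, observed over expected, had a median of 0.383, from 0.174 in Cnn1 to 0.709 in Myocd, against 0.524. The CArG box was found on either strand within 1 kb of the start in 4 of 8 genes (Actg2, Myh11, Tagln and Cnn1), against 9.3% of coding genes. Within the promoter window itself it was found in 2 of 8, Actg2 and Tagln, against 1.48%, and the same 2 had it within 500 bases on either side, against 4.31%. Each box found read CC, then only A or T, then GG. A match is a run of letters and does not show that SRF was bound. Likewise, the lack of such a match does not show that a gene has no SRF site.

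One of these boxes lay inside a CTCF peak of the optimal list. It was the Tagln box 112 bp upstream of the start, which sits within the weak peak chr9:45936095-45936390 and 77 bp from its summit. The second Tagln box lay 11 bp past the start. Both are shown, minus strand, in mm10 from RefSeq GRCm38, with the box in capitals.
Tagln, box upstream of the start: cctgcCCATAAAAGGttttt
Tagln, box past the start: tttccCCAAATATGGagcct
In the other genes the nearest optimal summit was 367 and 404 bp from the Actg2 boxes, 693 bp from the Myh11 box and 3904 bp from the Cnn1 box.

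The counts were set beside 2 lists of related genes. The apparatus list held 32 other genes of smooth muscle contraction and its control, among them myosin light chain kinase, calcium channels and SRF. Of these 21 (65.6%) had an optimal peak within 1 kb of a TSS, against 45.6% of coding genes, and 32 within 10 kb, against 72.3%. In the body 28 (87.5%) had one, against 58.9%, with no allowance for gene length. With the annotated 5′ end alone, 16 (50%) had a peak within 1 kb, against 37.7%, and 26 (81.2%) within 10 kb, against 66.9%. Their strongest peaks within 1 kb were at Itpr1 (444), the calcium release channel of the endoplasmic reticulum, Synm (433), an intermediate filament protein, Tpm1 (393), a tropomyosin, Csrp1 (339.6), a LIM protein, and Ppp1r14a (305), an inhibitor of myosin phosphatase. Replicate 1 gave these 245, 253, 222, 201 and 183, and replicate 2 gave 200.2, 182, 175, 140.5 and 125.

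The paralog list held 23 actins, myosins, calponins, leiomodins and intermediate filament genes of other muscle or of non-muscle cells. Of these 9 (39.1%) had a peak within 1 kb, against 45.6% of coding genes, and 18 (78.3%) within 10 kb, against 72.3%. In the body 14 (60.9%) had one, against 58.9%. With the annotated 5′ end alone, 6 (26.1%) had a peak within 1 kb, against 37.7%, and 17 (73.9%) within 10 kb, against 66.9%. The strongest within 1 kb were at Gfap (501, an astrocyte filament), Actb (401, cytoplasmic actin), Prph (263, a neuronal filament), Cnn3 (179, a calponin) and Tagln2 (139.7, a transgelin). Actc1, Myh1, Myh2, Myh8 and Tagln3 had none within 10 kb, and Myh1, Myh2 and Myh8 are neighbours in the skeletal myosin cluster. Other listed genes of that cluster did have peaks within 10 kb. Myh4 had 1, with a signal of 201, and Myh3 had 4, the strongest at 401. No test of the lists against each other was made, and the values are for these 2 samples.

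**Figure D4:**
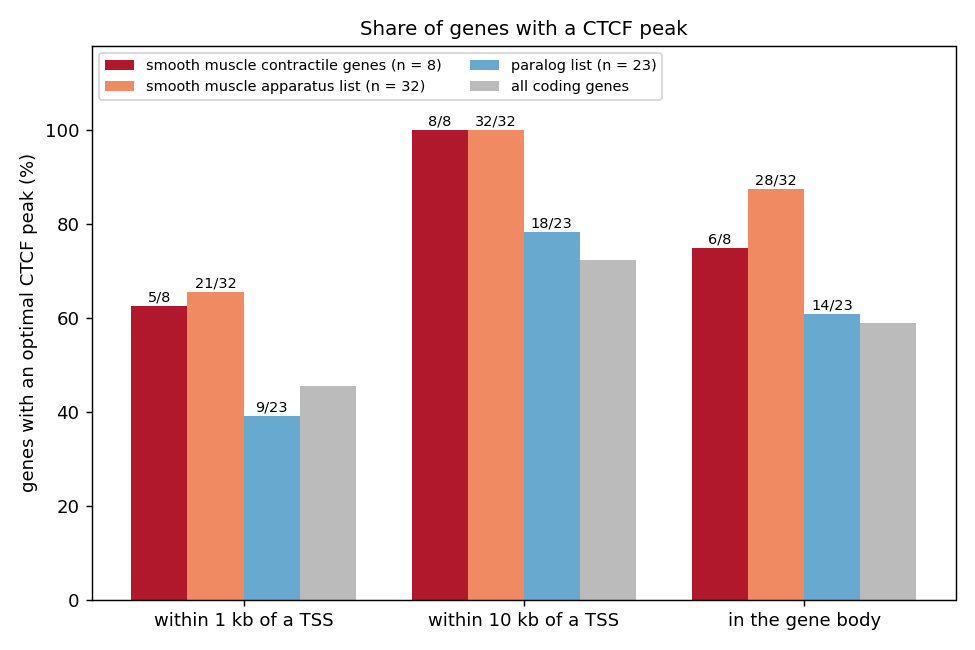
Percentage of genes with an optimal CTCF peak (vertical axis, from 0) within 1 kb and 10 kb of a TSS and in the gene body, for the 8 contractile genes, the 32 apparatus genes, the 23 paralogs and all 21938 coding genes, with counts above the bars. The contractile genes stand at 62.5%, 100% and 75%, and all coding genes at 45.6%, 72.3% and 58.9%.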

How the data were processed

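CTCF ChIP-seq of newborn mouse stomach was deposited as 5 peak lists in mm10: optimal and conservative IDR lists, called on both replicates, and relaxed lists of replicate 1, replicate 2 and both together, derived from alignments and a control alignment, per the labels. Which aligner, peak caller and IDR cutoff the authors used is not given in the sources used here, and the read depth is unknown. Each deposited list gives a signal per peak, the −log10 of a q-value (0.27 to 5.12 in the optimal list) and a summit position, in bp counted from where the peak begins. All 17 member peaks with a signal under 100 had a deposited width of 296 bp, the median of the optimal list, against 1 of the 12 stronger ones.

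Summits were compared with every transcript start of GENCODE M21. Replicate partners were the strongest relaxed summits within 100 bp. The CTCF matrix was learned from 983 of the 1000 strongest optimal peaks of chromosome 2. Promoter and motif sequence came from the RefSeq GRCm38 genome, whose masking marked repeats. No p-values were computed. The members and lists were chosen with earlier results of these data known, and 2 list genes were matched through an older symbol. All optimal peaks of the members are named or counted. Of each related list the 5 genes with the strongest peak within 1 kb and up to 5 with none within 10 kb are named. Myh3 and Myh4 are named besides, as cluster neighbours of genes without a peak. Gene calls, motif search and partner search were checked on simulated data. Python 3.11.15, numpy 2.4.6, pandas 2.3.3, scipy 1.17.1, pysam 0.24.0 and matplotlib 3.10.9 were used.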

Additional observations from a re-analysis of the deposited data

How the results depend on the processing

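Over 12 results and 49 alternative values, 43 stayed within 1.5 times the main count or within the spread given for it. The others concern weak peaks or stricter limits. Members with a peak within 1 kb of a TSS, 5 in the optimal list, numbered 2 in the conservative list and 1 among the 37141 strongest optimal peaks. Leaving out each replicate in turn gave 3 to 4. Myh11, Lmod1 and Myocd had a peak within 1 kb in both replicate lists cut to the optimal length, the Myocd summits at different positions. Members with a peak in the body, 6 in the main count, numbered 3 among the 37141 strongest. Within 10 kb of a TSS the count of 8 held in the conservative list, without either replicate and with peak intervals in place of summits, and was 6 among the 37141 strongest and 7 with the annotated 5′ end alone. Member peaks with a summit in both replicate lists, 26 at 100 bp, numbered 26 at 50 bp and 29 at 300 bp. Peaks with the motif fell from 18 to 11 at the score met by 0.1% of random windows. Genes with a CArG box fell from 4 to 2 in a window of 500 bases on either side of the start, by the window's own narrowing. No paired analysis was possible because there was 1 group and no contrast between groups. The lists give no read counts, so counting error could not be set on any signal, and 2 samples of 1 donor give no estimate of the spread between animals.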

Other observations

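The following positions were looked at after the data had been seen, and are given as values. More than 300 bp from any optimal summit, 18 further positions at these genes had summits within 100 bp of each other in both relaxed replicate lists. The highest in replicate 1 was in the Lmod1 body, 42471 bp from the start, with 18.1 in replicate 1 (rank 60261) and 2.74 in replicate 2 (rank 276798). The highest in replicate 2 was in the Myocd body, 84286 bp from the 5′ end, with 4.44 in replicate 1 and 8.87 in replicate 2. In both cases 1 replicate ranked the position far lower than the other.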
